A study of Mus musculus with 9 samples.

Results

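The 10 genes used as markers of macrophages (Cd68, Adgre1, Csf1r, Itgam, Cd14, Lyz1, Lyz2, C1qa, C1qb and Mrc1) were followed in mouse chondrocyte cultures on matrices of different stiffness. They were chosen by name, each read from its brightest probe. Of the 10 genes, 9 had a probe, 1 each, among the 18295 genes tested, and Lyz2 had none under its symbol, synonyms or gene identifier. The comparison asked whether the macrophage signal of the cultures shifted with the substrate.

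Chondrocytes were isolated with collagenase from knee articular cartilage of newborn Kunming mice and plated on polyacrylamide gels coated with type I collagen. The soft ECM gel had an elastic modulus of 500 Pa and the stiff ECM gel of 100 kPa, and the labels give 24 h of culture, while a figure legend of the study gives a longer time. The third group is labelled normal, and neither the labels nor the methods name its substrate. Each group had 3 samples, hybridised to single-colour arrays, and no sorting step is described for the primary isolate, which may hold cells other than chondrocytes.

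Macrophages are phagocytes that live in nearly every tissue, the synovial lining of the knee included, and can be carried into a primary joint cell isolate. They depend on signals through the CSF1 receptor and on the transcription factor PU.1, and are recognised by lysosomal, surface and complement genes that are active together in them. Some of these genes are also used by other cells, Cd68 and the lysozymes among them, so no single one marks a macrophage by itself.

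The median intensity of all probes was 124 to 179 in the normal samples, 137 to 150 on the soft ECM, against 166 to 175 on the stiff ECM, in the arbitrary units of the array. The probes of olfactory receptor genes, which belong to nasal neurons and served as a gauge of silent genes, had medians of 27.9 to 48.6, 37.7 to 42.2 and 54.6 to 57.4, highest on the stiff ECM. Over 24942 tested probes the median log2 fold change was 0.18 for stiff minus soft ECM, -0.09 for soft ECM minus normal and 0.09 for stiff ECM minus normal. Changes are to be read against these shifts. Col2a1, the collagen II chain that defines cartilage, was bright in all samples, at 8720 to 11070 in the normal samples, 3304 to 3963 on the soft ECM, against 3505 to 4092 on the stiff ECM.

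The macrophage label was checked on the members and on Spi1, a gene of the leukocyte and myeloid list described below. Spi1, which encodes PU.1, lay between 827 and 1597 in the 9 samples, and 99.8% of the olfactory receptor probes were dimmer. The same share was dimmer than Cd68, Cd14 and Lyz1. Itgam, Csf1r and Adgre1 were brighter than 96.3%, 95.1% and 94.8% of those probes, Mrc1 than 84.9%, C1qa than 74% and C1qb than 34%. C1qb and C1qa, and to a lesser degree Mrc1, were therefore within the range of silent genes. The soft samples of Adgre1 (258 to 283) and Csf1r (258 to 301) also lay below 309.3, the 95th percentile of those probes. Of the further genes described below, 8 of 26 macrophage genes and 12 of 20 leukocyte or myeloid genes were above that percentile. Ptprc and Cx3cr1, brighter than 91.8% and 58.1% of those probes, were among the genes that were not. In whole cultures, fewer macrophages and less RNA per macrophage cannot be told apart.

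The members did not move together. Lyz1 and Itgam were higher on the stiff ECM than on the soft ECM and than in the normal samples, by 1.49- to 2.05-fold. Cd68, Adgre1 and Csf1r were lower on the soft ECM than in every normal sample, with a difference that did not pass the adjusted threshold of 0.05. Cd14 overlapped among all 3 groups, and the dim C1qa, C1qb and Mrc1 did not pass in any comparison.

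The promoters of the lysozyme pair and of Itgam are shown because Lyz1 and Itgam are the members that passed the test, and because Lyz1 and Lyz2 are neighbours on chromosome 10 and near-identical copies. Each runs from 250 bases before to 50 bases after the gene's start, on the coding strand 5′ to 3′, from RefSeq on GRCm38.p6. Lyz1 is chr10:117292819-117293118 and Lyz2 is chr10:117282223-117282522, both on the minus strand, and Itgam is chr7:128062390-128062689 on the plus strand. Capitals mark the letters AGGAAG or their reverse complement CTTCCT, a form of the sites to which PU.1 and other ETS factors bind. Other forms of these sites are not marked.
Lyz1: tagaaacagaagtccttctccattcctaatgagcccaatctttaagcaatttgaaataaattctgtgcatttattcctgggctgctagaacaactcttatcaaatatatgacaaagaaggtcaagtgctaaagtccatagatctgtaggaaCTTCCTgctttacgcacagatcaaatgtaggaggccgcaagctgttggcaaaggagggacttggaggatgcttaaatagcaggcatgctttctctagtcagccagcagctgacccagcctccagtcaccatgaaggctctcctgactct
Lyz2: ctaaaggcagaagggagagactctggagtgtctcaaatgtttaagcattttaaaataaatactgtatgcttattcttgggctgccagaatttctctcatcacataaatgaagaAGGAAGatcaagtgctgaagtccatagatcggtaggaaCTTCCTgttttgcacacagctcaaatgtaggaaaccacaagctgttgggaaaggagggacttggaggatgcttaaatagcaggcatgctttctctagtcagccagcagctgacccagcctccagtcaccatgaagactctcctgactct
Itgam: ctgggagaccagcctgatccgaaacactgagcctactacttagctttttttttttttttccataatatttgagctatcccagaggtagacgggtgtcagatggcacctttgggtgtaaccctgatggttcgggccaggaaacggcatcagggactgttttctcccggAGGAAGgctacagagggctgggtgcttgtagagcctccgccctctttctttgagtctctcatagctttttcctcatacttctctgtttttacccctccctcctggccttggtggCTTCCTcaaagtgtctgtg

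In an alignment of the 2 lysozyme promoters 249 of 302 columns were identical (82.5%), and over the last 100 bases, with the first 50 transcribed ones, 99 were. The sequence of the Lyz1 probe was not used here, so the Lyz1 values may hold signal from Lyz2, and the copies cannot be told apart. The motif occurred 1 time in the Lyz1 window and 2 times in each of the Lyz2 and Itgam windows. A promoter was searched for 6 members, and 5 held the motif, all but Cd68, with the similar lysozyme windows counted as 2. Other forms of ETS sites were not searched, so the Cd68 window may still hold such a site. Adgre1 and C1qa had no entry in the table, and Csf1r and Cd14 were not searched. Of 32851 mouse promoters of the same length, 11613 (35.4%) held it, and a match is a description of the letters and not of binding.

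Lyz1 encodes lysozyme, the secreted enzyme that cuts the bacterial cell wall. Its intensity was 1454, 1927 and 1495 in the normal samples, 1362, 1542 and 1254 on the soft ECM, against 2111, 3344 and 3231 on the stiff ECM. All 3 stiff samples lay above all other samples, while normal and soft samples overlapped. The group means were 1625 ± 262, 1386 ± 145 and 2895 ± 682 (SD, n = 3). On the log2 scale Lyz1 was 1.04 higher on stiff than on soft ECM (SE 0.18, 2.05-fold, limma adjusted p = 0.0239). Against normal it was 0.81 higher on the stiff ECM (SE 0.18, 1.76-fold, limma adjusted p = 0.0226), and for soft ECM minus normal the difference was -0.22 (limma adjusted p = 0.533). Stiff replicate 1 was the lowest of its group and lay 183.6 units above the highest normal sample.

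Itgam encodes the alpha chain of the complement receptor CR3 (CD11b), which binds opsonised particles and fibrinogen on macrophages and neutrophils. It read 290, 308 and 349 in the normal samples, 287, 295 and 317 on the soft ECM, against 453, 497 and 459 on the stiff ECM. The stiff samples again lay above all others, and the normal and soft samples overlapped near 309.3, the 95th percentile of the olfactory receptor probes. The means were 316 ± 30.3, 299.5 ± 15.5 and 470 ± 23.4 (SD, n = 3). On the log2 scale Itgam was 0.65 higher on stiff than on soft ECM (SE 0.12, 1.57-fold, limma adjusted p = 0.0293) and 0.58 higher on stiff ECM than in normal samples (SE 0.12, 1.49-fold, limma adjusted p = 0.0187). For soft ECM minus normal it differed by -0.07 (limma adjusted p = 0.783).

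These 2 calls stood close to the threshold. Over 20 alternative settings the log2 difference of Lyz1 between stiff and soft ECM ranged from 0.79 to 1.25 and passed in 13, and that of Itgam ranged from 0.40 to 0.69 and passed in 12. Without any 1 of the 3 soft samples neither gene passed, with limma adjusted p of 0.0524 to 0.0872 for Lyz1 and 0.0872 to 0.0944 for Itgam. Without stiff replicate 2 the values were 0.144 and 0.182, and without stiff replicate 3 they were 0.0711 and 0.0752. Itgam also fell short without normal replicate 2 (0.0639) and without stiff replicate 1 (0.0697), and with the replicate number as a block (0.0619). Lyz1 fell short without the intensity trend (0.0655) and with the methods' t-test (0.0948). The number of probes of the whole array that passed between the gels also fell when 1 gel sample was left out, from 441 to 0 to 117, and it was 0 without stiff replicate 2 (limma, with 3255 at an unadjusted p under 0.05). Against normal, Lyz1 passed in 15 and Itgam in 16 of the 20 settings.

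**Figure D1:**
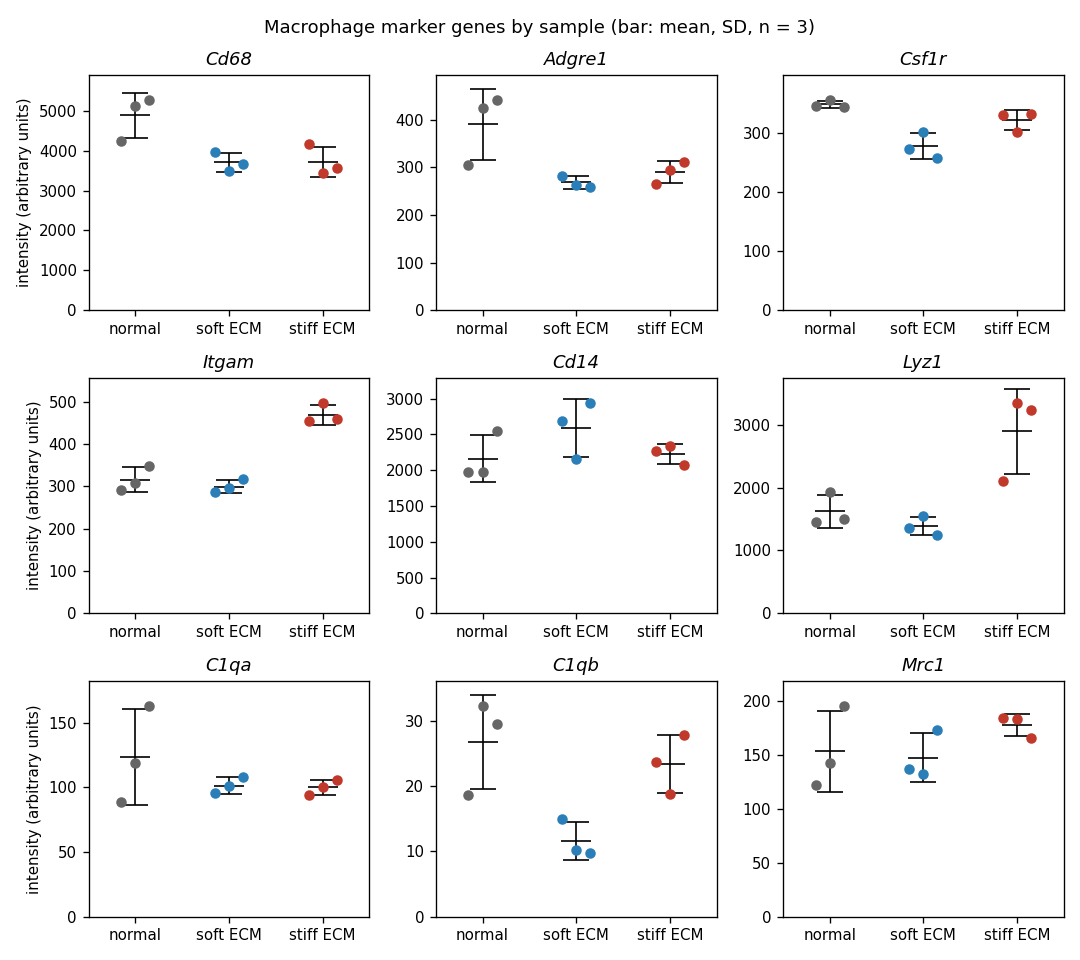
Intensity in arbitrary units (vertical axes, linear, from 0) of the 9 measured macrophage marker genes in the 3 normal, 3 soft ECM and 3 stiff ECM samples; points are samples, horizontal marks are group means and bars are the SD. The 3 stiff points lie above all others for Lyz1 (2111 to 3344) and Itgam (453 to 497), and the 3 normal points lie above all others for Cd68 (4248 to 5270).

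Cd68 encodes a heavily glycosylated protein of lysosomes and endosomes that is abundant in macrophages and present in other cells rich in lysosomes. It read 4248, 5130 and 5270 in the normal samples, 3964, 3490 and 3654 on the soft ECM, against 4155, 3433 and 3565 on the stiff ECM. All normal samples lay above all gel samples, by 93.2 units at the nearest pair, and the gels overlapped. The means were 4883 ± 554, 3703 ± 241 and 3718 ± 384 (SD, n = 3). The log2 difference was -0.39 for soft ECM minus normal (SE 0.11, limma adjusted p = 0.0848), -0.39 for stiff ECM minus normal (SE 0.11, limma adjusted p = 0.0538) and 0.003 for stiff minus soft ECM (SE 0.11, limma adjusted p = 0.99). None passed, although stiff ECM minus normal passed after median centring (-0.55, limma adjusted p = 0.00942), among the upper 50% of probes (0.0408), without normal replicate 1 (0.034) and without stiff replicate 1 (0.0472). Soft ECM minus normal passed without normal replicate 1 (-0.49, limma adjusted p = 0.0446).

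Adgre1 encodes the F4/80 antigen, an adhesion receptor long used to stain mouse macrophages. It read 305, 425 and 441 in the normal samples, 283, 264 and 258 on the soft ECM, against 265, 295 and 310 on the stiff ECM. Normal replicate 1 was the low sample of its group, above every soft sample and within the range of the stiff samples. The log2 difference was -0.52 for soft ECM minus normal (SE 0.16, limma adjusted p = 0.0927), -0.41 for stiff ECM minus normal (SE 0.16, limma adjusted p = 0.108) and 0.11 between the gels (SE 0.16, limma adjusted p = 0.691). Without normal replicate 1 both differences from normal passed, at -0.69 for soft ECM (limma adjusted p = 0.0231) and -0.58 for stiff ECM (limma adjusted p = 0.0219), and stiff ECM minus normal also passed under all 3 other scalings (adjusted p of 0.01 to 0.0262).

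Csf1r encodes the receptor for CSF1 and IL-34 on which macrophage survival depends. It read 345, 356 and 344 in the normal samples, 273, 301 and 258 on the soft ECM, against 330, 302 and 333 on the stiff ECM. The 3 groups did not overlap, in the order normal, stiff and soft, but the nearest soft and stiff samples were 0.4 units apart. The log2 difference was -0.33 for soft ECM minus normal (SE 0.12, limma adjusted p = 0.147), -0.12 for stiff ECM minus normal (SE 0.12, limma adjusted p = 0.527) and 0.22 for stiff minus soft ECM (SE 0.12, limma adjusted p = 0.306). No comparison of Csf1r passed under any of the 20 alternatives, and after median centring the difference between the gels was -0.03.

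Cd14 encodes the co-receptor that hands bacterial lipopolysaccharide to Toll-like receptor 4. It read 1968, 1980 and 2542 in the normal samples, 2693, 2151 and 2936 on the soft ECM, against 2263, 2335 and 2069 on the stiff ECM. All 3 groups overlapped, and Cd14 was the member whose group mean was highest on the soft ECM. The log2 difference was 0.26 for soft ECM minus normal (SE 0.14, limma adjusted p = 0.333), -0.21 for stiff minus soft ECM (SE 0.14, limma adjusted p = 0.386) and 0.05 for stiff ECM minus normal (SE 0.14, limma adjusted p = 0.844). Soft ECM minus normal passed after quantile (0.41, limma adjusted p = 0.048) and cyclic loess normalization (0.40, limma adjusted p = 0.0464), and stiff minus soft ECM passed after median centring (-0.46, limma adjusted p = 0.0444).

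The complement chains C1qa and C1qb, 2 of the 3 chains of C1q that tissue macrophages secrete, were dim. C1qa read 88.8, 119 and 163 in the normal samples, 95.2, 101 and 108 on the soft ECM, against 93.9, 99.9 and 106 on the stiff ECM, with the groups overlapping and log2 differences of -0.02, -0.24 and -0.26 for stiff minus soft, soft minus normal and stiff minus normal (limma adjusted p of 0.963, 0.565 and 0.424). Stiff ECM minus normal passed for C1qa after quantile (-0.49, limma adjusted p = 0.0267) and cyclic loess scaling (-0.48, limma adjusted p = 0.0286). C1qb read 18.6, 32.3 and 29.6 in the normal samples, 15.03, 10.2 and 9.81 on the soft ECM, against 23.7, 18.8 and 27.8 on the stiff ECM. Its soft samples lay below all others, and in all 9 samples C1qb was below the median of the silent gene probes, which itself was lower on the soft than on the stiff ECM. The log2 difference of C1qb was -1.19 for soft ECM minus normal (SE 0.33, limma adjusted p = 0.0738) and 1.02 for stiff minus soft ECM (SE 0.33, limma adjusted p = 0.122), and without normal replicate 1 both passed (limma adjusted p of 0.0354 and 0.0435). With an offset before the log2 the C1qb differences were -0.39 and 0.32, and after quantile scaling stiff minus soft ECM was 0.38, so their size depends on the setting. Soft ECM minus normal also passed for C1qb after cyclic loess scaling (-1.22, limma adjusted p = 0.0352).

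Mrc1 encodes the mannose receptor (CD206), an endocytic receptor of resident and alternatively activated macrophages. It read 122, 143 and 195 in the normal samples, 137, 132 and 174 on the soft ECM, against 184, 184 and 166 on the stiff ECM. The groups overlapped, and the log2 differences were 0.28 for stiff minus soft, -0.04 for soft minus normal and 0.24 for stiff minus normal (SE 0.19 each, limma adjusted p of 0.41, 0.941 and 0.421).

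Counted over the members, 2 of 9 passed between stiff and soft ECM, both higher, where 1.77% of all probes passed in either direction, 1.35% higher and 0.417% lower. The 4 members Csf1r, Itgam, Lyz1 and C1qb were higher on the stiff ECM with no overlap of the samples and 0 were lower, where 31.7% of all probes were higher and 6.39% lower in this way, which is not far from the members' share. The median log2 difference of the members was 0.22, beside 0.18 over all tested probes. At an unadjusted p under 0.05 there were 3 of 9, beside 21.6% of all probes.

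Between soft ECM and normal, 0 of 9 members passed with limma, where 3.7% of all probes passed (0.493% higher and 3.21% lower), and 4 had an unadjusted p under 0.05, all lower, beside 19.9% of all probes. The methods' t-test also called 0 of the members after adjustment. Over all 24942 probes it called 6 here, 20 for stiff ECM minus normal and 223 between the gels. A count of 0 from this test among few genes therefore says little, in the lists below as well. Cd68, Adgre1, Csf1r and C1qb were lower with no overlap of the samples and 0 were higher, where 18.3% of all probes were lower and 5.26% higher. The median log2 difference was -0.24 over the members and -0.09 over all probes. In a fit without normal replicate 1, the sample with the lowest median intensity, Cd68, Adgre1 and C1qb passed. Over all 24942 probes that fit called 87 higher and 1041 lower, and the median log2 difference was -0.19.

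Between stiff ECM and normal, 2 of 9 passed, both higher, where 9.94% of all probes passed (4.8% higher and 5.14% lower). Under each of the 3 other scalings 4 passed, 2 higher and 2 lower, the lower ones being Adgre1 with C1qa (quantile and cyclic loess) or Cd68 (median centring). Calls over all 24942 probes rose as well, from 2478 to 4074 (quantile), 5561 (median centring) and 3937 (cyclic loess). Lyz1 and Itgam were higher and Cd68 and Csf1r lower with no overlap, where 19.3% of all probes were higher and 14.6% lower. The median log2 difference was -0.12 over the members and 0.09 over all probes. The comparisons of each gel with normal share the normal samples and are not independent of each other.

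**Figure D2:**
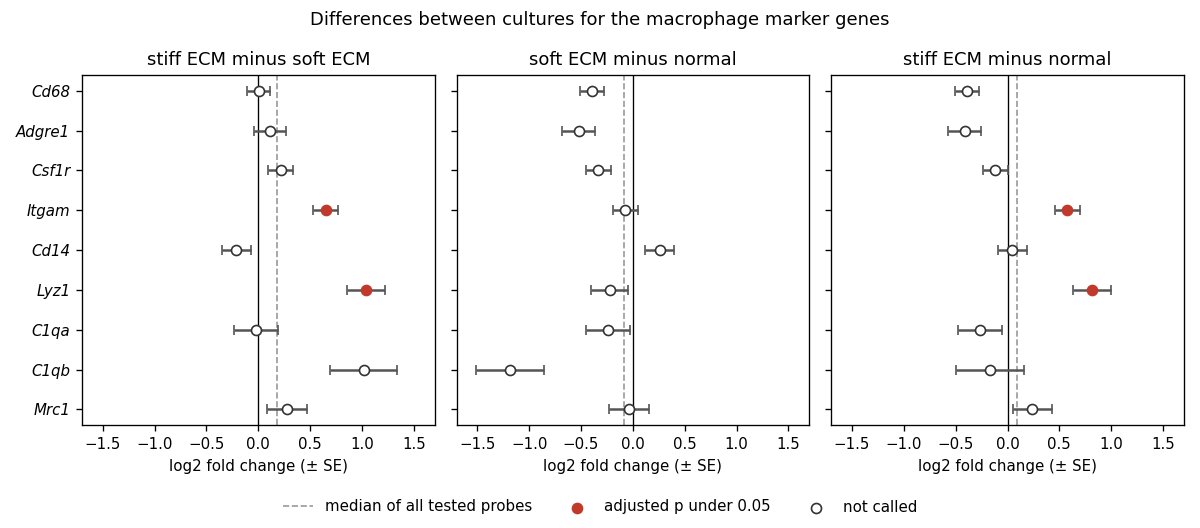
Log2 fold change with its SE (horizontal axes) of the 9 measured members in the 3 comparisons, from the limma fit; filled points have an adjusted p under 0.05 and the dashed line is the median of all tested probes (0.18, -0.09 and 0.09). Lyz1 and Itgam are the filled points in both comparisons with the stiff ECM, and the comparison of soft ECM with normal has none.

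The summed intensity of the 9 members was 8839 to 10829 in the normal samples, 8286 to 9109 on the soft ECM, against 9879 to 10508 on the stiff ECM. The soft and stiff samples did not overlap. Most of this sum came from Cd68, Cd14 and Lyz1, and without Lyz1 it was 7386 to 9334, 6744 to 7746 and 7036 to 7768, with the gels overlapping.

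**Figure D3:**
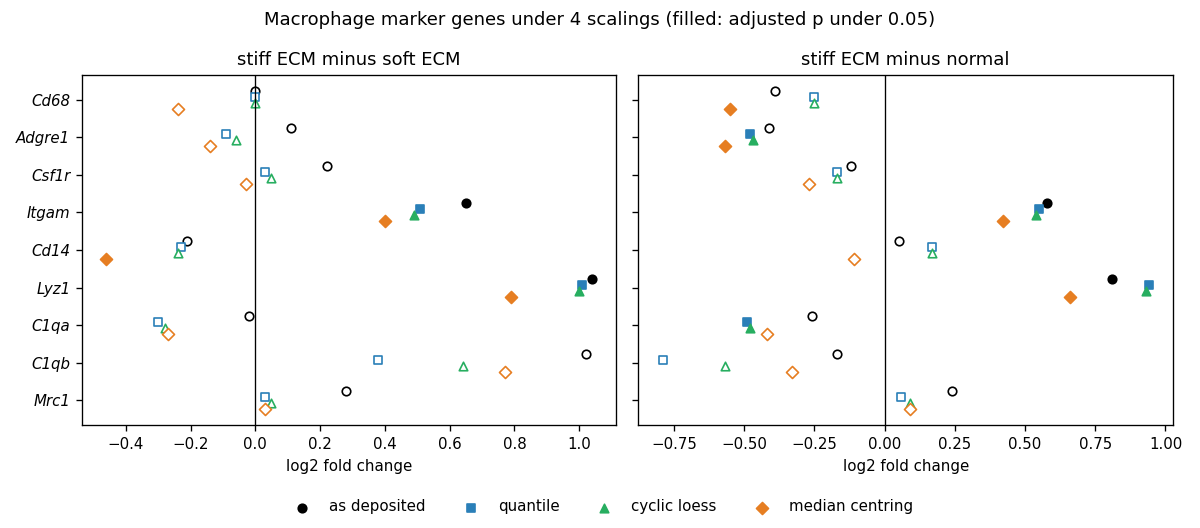
Log2 fold change (horizontal axes) of the members as deposited and after quantile, cyclic loess and median scaling, for stiff minus soft ECM and stiff ECM minus normal; filled symbols have an adjusted p under 0.05. Lyz1 and Itgam are filled under all 4 scalings, while Cd68, Adgre1 and Csf1r lie on both sides of 0 or at it between the gels.

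Beside the members, 27 further macrophage genes were described, of which 26 were tested. Between stiff and soft ECM 0 passed in the limma fit, with 7 at an unadjusted p under 0.05, beside 21.6% of all probes. The median log2 difference was 0.32, beside 0.18 over all tested probes. Of the 26 genes, 8 were brighter than the 95th percentile of the silent gene probes. The methods' t-test called 1, Cx3cr1, the fractalkine receptor, at 50.9 to 55.1 on the soft and 72.2 to 76.8 on the stiff ECM. It was dim, with 58.1% of the silent gene probes dimmer. The medians of those probes were also higher on the stiff ECM, at 54.6 to 57.4 against 37.7 to 42.2 on the soft ECM. Against normal, Ms4a7, a membrane protein of tissue macrophages, was lower on both gels. It read 319 to 383 in the normal samples, 182 to 243 on the soft ECM, against 114 to 136 on the stiff ECM, with no overlap among the groups. Its log2 difference was -0.73 for soft ECM minus normal (limma adjusted p = 0.0303), -1.43 for stiff ECM minus normal (limma adjusted p = 0.00197) and -0.70 between the gels (limma adjusted p = 0.0505). Mpeg1, which encodes the pore-forming perforin-2 of phagocytes, was lower on stiff ECM than in normal samples by a log2 difference of -0.74 (limma adjusted p = 0.0204).

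Clec7a and Siglec1 of that list were higher on the stiff ECM than in the normal samples. Between the gels they differed by 0.8 and 0.43 on the log2 scale and did not pass (limma adjusted p of 0.0941 and 0.176). Clec7a, the beta-glucan receptor dectin-1, read 512 to 899 in the normal samples, 894 to 1301 on the soft ECM, against 1456 to 2450 on the stiff ECM. The stiff samples lay above all others, and stiff ECM minus normal was 1.45 on the log2 scale (limma adjusted p = 0.00736). Siglec1, the sialoadhesin of resident macrophages, was 0.62 higher on the stiff ECM than in normal samples (limma adjusted p = 0.0433). The 2 brightest genes of the list were Fcgr3, a low-affinity receptor for immunoglobulin G, and Clec4n, the fungal receptor dectin-2. Neither passed, with log2 differences of 0.11 to 0.22 for Fcgr3 and of -0.27 to -0.09 for Clec4n. Cd163, a haemoglobin scavenger receptor, was not tested because a sample was at or below 0.

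Of 20 genes shared by leukocytes or myeloid cells, 0 passed between the gels with limma or the methods' t-test and 1 had an unadjusted limma p under 0.05. Ptprc, the leukocyte common antigen CD45, read 173 to 311 in the normal samples, 218 to 233 on the soft ECM, against 280 to 304 on the stiff ECM, and did not pass (log2 difference of 0.36 between the gels, limma adjusted p = 0.306). Ctss and Laptm5, the brightest of the list and both of the lysosomal system, differed by 0.20 and -0.06. Against normal on the stiff ECM, Cd52, a small surface glycoprotein of leukocytes, was higher (0.56, limma adjusted p = 0.0491) and Fcer1g, the signalling chain of Fc receptors, was lower (-0.48, limma adjusted p = 0.0419). The median log2 difference between the gels was 0.15. Several of these calls against normal rested on the setting, since Siglec1 passed in 8 of 20 alternatives, Fcer1g in 7 of 20, Cd52 in 6 of 19 and Ms4a7 on the soft ECM in 10 of 20.

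Among 13 genes of the CSF1 axis, 12 tested, the ligands and transcription factors were followed. Csf1, the ligand of Csf1r, read 7398 to 9468 in the normal samples, 5496 to 6284 on the soft ECM, against 5792 to 8459 on the stiff ECM. Its soft samples lay below all normal samples, with a log2 difference of -0.54 (limma adjusted p = 0.0684). Csf2, the ligand GM-CSF, rose on both gels, with 11.99 to 16.9 in the normal samples, 62.8 to 83.2 on the soft ECM and then 87.7 to 152 on the stiff ECM. Its normal values lay below the median of the silent gene probes, so the size of the rise is not well measured. The fitted log2 difference from normal was 2.35 on soft and 3.18 on stiff ECM (limma adjusted p of 0.00358 and 0.000963), and over the alternatives it ranged from 1.1 to 2.49 and from 1.7 to 3.44. Maf, a transcription factor of mature macrophages and also of chondrocytes, was 0.95 higher on stiff than on soft ECM (limma adjusted p = 0.0279, and in 12 of 20 alternatives) and 0.99 higher than in normal samples (limma adjusted p = 0.0102). Cebpb, a bright myeloid and stress-responsive transcription factor, differed from normal by -0.43 on the stiff ECM and did not pass.

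Of 15 lysosomal and phagocytosis genes 14 were tested, and Grn, the precursor of the granulins, was the one that passed, at -0.36 for soft ECM minus normal (limma adjusted p = 0.0454, and in 5 of 20 alternatives). Cd63 and Lamp2, the brightest, read up to 70047 and 70054, near the top of the measured range, where a difference may be compressed. Their log2 differences were 0.00 to 0.23 in size and none passed.

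Itgam and the lysozymes are used by neutrophils too, and Itgam by dendritic cells. Of 10 neutrophil genes 8 were tested, and Camp and S100a9, granule and cytosolic antimicrobial proteins, were lower on stiff than on soft ECM, by log2 differences of -1.10 and -1.18 (limma adjusted p of 0.0239 and 0.0424). Camp passed in 13 of 20 alternatives. S100a9, at a level where 46.9% of the silent gene probes were dimmer, passed in 10 of 19 and ranged from -1.69 to -0.56. The list as a whole had 4 genes above and 4 below 0 between the gels, with a median of -0.02. Ltf, lactoferrin, was 0.73 higher on stiff ECM than in normal samples (limma adjusted p = 0.0314). The summed intensity of the neutrophil list was 849 to 1391 in the normal samples, 1265 to 1310 on the soft ECM, against 1103 to 1302 on the stiff ECM, overlapping in all groups. The part of neutrophils in the Itgam and Lyz1 values was not tested.

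Of 11 dendritic cell genes, 10 were tested, of which 1 passed between the gels and 2 for stiff ECM minus normal. Itgax, the CD11c integrin chain of dendritic cells and some macrophages, rose from 102 to 112 on the soft ECM to 210 to 273 on the stiff ECM (log2 difference of 1.14, limma adjusted p = 0.0275, and in 10 of 19 alternatives), with 55.8 to 93.9 in the normal samples. H2-Aa, a class II antigen-presenting chain, was 0.82 higher on stiff ECM than in normal samples (limma adjusted p = 0.027). The summed intensity of the list was 727 to 1144 in the normal samples, 839 to 1013 on the soft ECM, against 1266 to 1420 on the stiff ECM, higher there without overlap. Its median difference between the gels was 0.67, and 1 of its tested genes was brighter than the 95th percentile of the silent gene probes, H2-Eb1. The silent gene probes were highest on the stiff ECM too, and the T and B cell and endothelial sums were higher there than on the soft ECM. Xcr1, a defining receptor of one class of dendritic cells, was at or below 0 in a sample, and Zbtb46, their transcription factor, differed by 0.05 at most. Their part in the results for Lyz1 and Itgam was not tested.

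Osteoclasts are relatives of macrophages. Of their 11 genes 0 passed between the gels with limma and 4 had an unadjusted p under 0.05, while the methods' t-test called 2, Dcstamp and Oscar, an activating receptor of osteoclasts. Dcstamp, the fusion protein of osteoclast precursors, was 1.72 higher on stiff ECM than in normal samples (limma adjusted p = 0.0244), at 48.1 to 56.9 against 8.27 to 29.6, dimmer than most silent gene probes. Ctsk and Acp5, the cathepsin and phosphatase of bone resorption and the 2 brightest of the list, did not pass.

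Of 8 tested T and B cell genes, 0 passed with limma or the methods' t-test in any comparison and 2, 0 and 2 had an unadjusted p under 0.05 for stiff minus soft, soft minus normal and stiff minus normal. The 8 endothelial genes also had 0 limma calls, with 1, 0 and 2 at an unadjusted p under 0.05, and the methods' t-test called Kdr, a VEGF receptor, between the gels. Cd3e and Cd79a, and Esam and Cldn5, were the brightest of these lists, and differed by 0.10 to 0.35 between the gels on the log2 scale. The summed intensity of both lists was higher on stiff than on soft ECM without overlap, at 1180 to 1370 against 974 to 1080 for T and B cell genes and 1627 to 1777 against 1380 to 1440 for endothelial genes, as was that of silent gene probes.

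Of 12 chondrocyte genes, 2 passed as lower on the soft and 3 on the stiff ECM than in the normal samples. Of 9 fibroblast genes 3 passed as lower on each gel. Over all probes, 3.21% passed as lower on the soft and 5.14% on the stiff ECM. Col2a1 differed from normal by -1.42 on the soft and -1.31 on the stiff ECM (limma adjusted p of 0.00102 and 0.000963), Col11a1 by -1.31 and -0.76, and Col9a1 by -0.75 on the stiff ECM, while 0 of the 12 chondrocyte genes passed between the gels with limma or the methods' t-test and 2 had an unadjusted limma p under 0.05. Col1a2, Col3a1 and Thy1, which mark fibroblasts, were lower on both gels by log2 differences of -0.62 to -0.70, while Dcn and Lum did not pass. The calls on the soft ECM held in 15 of 20 alternatives for Col1a2, 8 of 20 for Col3a1 and 10 of 20 for Thy1. The median log2 difference of the fibroblast list was -0.11 for soft ECM minus normal and -0.03 for stiff ECM minus normal. The share of each cell type behind these values was not tested.

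**Figure D4:**
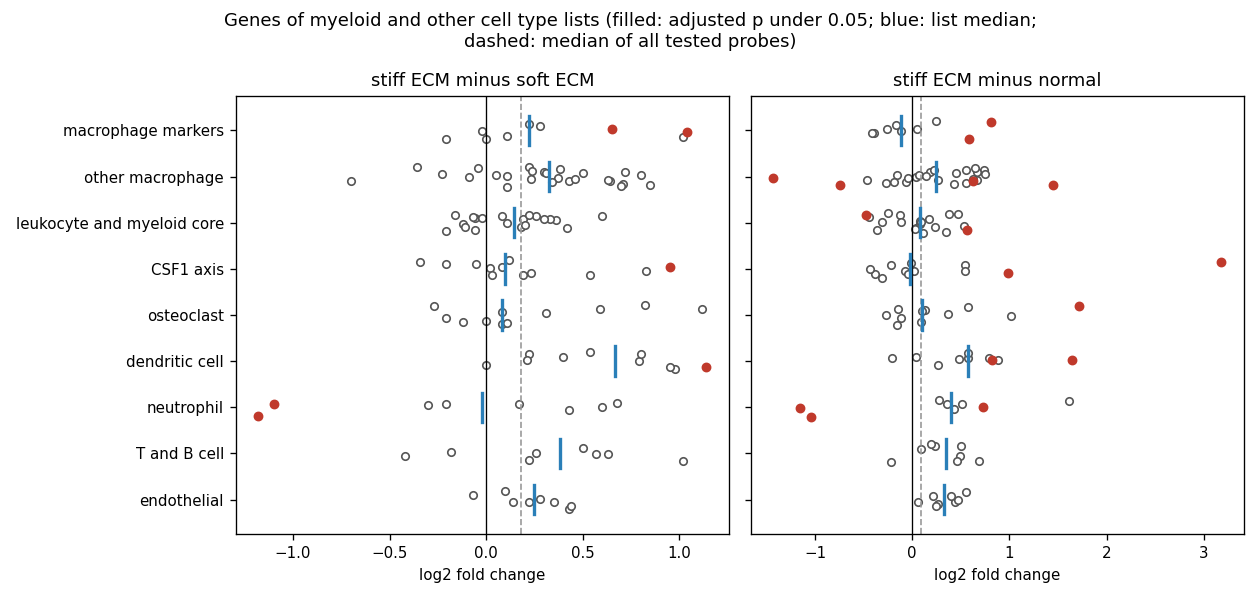
Log2 fold change (horizontal axes) of every tested gene of 9 lists for stiff minus soft ECM and stiff ECM minus normal; filled points have an adjusted p under 0.05, blue marks are list medians and the dashed line is the median of all tested probes. Filled points of the macrophage markers lie at 0.65 and 1.04 between the gels, and those of the neutrophil list lie at -1.10 and -1.18.

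The 6 members brighter than the 95th percentile of the silent gene probes (Cd68, Cd14, Lyz1, Itgam, Csf1r and Adgre1) had a mean log2 intensity of 9.73, 9.94 and 9.98 in the normal samples, 9.69, 9.65 and 9.66 on the soft ECM, against 9.91, 10.01 and 10.00 on the stiff ECM. Normal replicate 1 lay next to the soft samples, and the other normal samples next to the stiff ones. Adgre1 stood at the cut, with a mean intensity of 310.2 against 309.3, and reached it through its normal samples. The soft samples of Adgre1 and Csf1r lay below it, and Csf1r was highest in its normal samples (344 to 356). Itgam lay on both sides of the cut in the normal (290 to 349) and soft samples (287 to 317). On the stiff ECM it lay above the cut (453 to 497). Which members entered the mean therefore depended partly on the groups where they are high, and the mean is not a test of the groups. Among 9967 probes of other genes above the same cut, those most like the mean of the 6 members were found by Pearson correlation over the 9 samples. They were probes of Frmd4b (0.99), Faap20 (0.986), Golph3 (0.973), Apobec3 (0.971) and Cers6 (0.97). These are descriptions over libraries that also differ in overall intensity.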

How the data were processed

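RNA of 9 chondrocyte samples was measured, and samples were grouped by their GEO labels. The values deposited by the authors are linear intensities of 26423 probes. According to the methods, the authors used Phalanx Mouse OneArray v2 arrays and, in Rosetta Resolver (version not given in the sources used here), median scaling and averaging of repeat arrays. Whether the deposited values are such averages was not tested. Values at or below 0 occur, and whether a background was subtracted is not stated.

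The log2 of the deposited intensities was taken with no further scaling, and 24942 probes above 0 in all samples were kept (1481, 5.6%, were not). Probes were named from the platform annotation (21876 with 1 symbol, 4547 with none). A mean per group was fitted in R 4.3.3 with limma 3.58.1 (lmFit, then eBayes with a trend on intensity), and each contrast was adjusted over all probes (Benjamini-Hochberg, 0.05). The fit was tested on simulated data. Alternatives were quantile, median and cyclic loess scaling, the upper 50% of probes, a floor (3.209), an offset (36.05), no trend, 2 groups only, the methods' t-test, 1 probe per gene, a replicate block, and each sample left out. Student's test, here called the methods' t-test, is named for the study's statistics in general and not for the arrays. The error-weighted model of Rosetta Resolver, which the study used for array comparisons, was not run. The number of arrays limits the precision.

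Named were all members, and from each other list the 2 brightest genes and up to 4 that passed. Spi1, Ptprc, Cd163 and Xcr1 were named outside this rule. So were Cx3cr1, Oscar and Kdr, which the methods' t-test called between the gels and the main fit did not. The genes most like the members were the 5 with the highest correlation. The members and the lists were chosen with earlier results of these data known. No source states whether replicates were separate cultures or animals. The p-values therefore measure the spread between these samples, which may be technical. Promoters were aligned with Biopython 1.88 and figures drawn with matplotlib 3.10.9 (Python 3.11.15).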

Additional observations from a re-analysis of the deposited data

How the results depend on the processing

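Between stiff and soft ECM the number of members that passed was 2, and it was 1 without the intensity trend, 1 with the methods' t-test and 1 with the replicate block, 3 after median centring, with Cd14 lower, and 0 to 3 when each sample was left out. For soft ECM minus normal it was 0, and 1 after quantile and 2 after cyclic loess normalization, with 0 to 3 when each sample was left out. For stiff ECM minus normal it was 2, and 4 after quantile, median or cyclic loess scaling. It was 1 without the trend and 0 to 3 when each sample was left out. With the methods' t-test, which called 20 of 24942 probes, it was 0. Among the differences that changed sign, none of which passed, stiff minus soft ECM was -0.24 for Cd68 and -0.03 for Csf1r after median centring. For Adgre1 it was -0.09, -0.14 and -0.06 after quantile, median and cyclic loess scaling. Soft ECM minus normal under the same 3 scalings was 0.04, 0.02 and 0.05 for Itgam and 0.03, 0.06 and 0.04 for Mrc1. Stiff ECM minus normal was -0.11 for Cd14 after median centring. Left-out samples moved Cd68 from -0.08 to 0.06 and C1qa from -0.06 to 0.03 between the gels, Itgam from -0.13 to 0.0012 and Mrc1 from -0.19 to 0.15 for soft ECM minus normal, and Cd14 from -0.02 to 0.17 for stiff ECM minus normal. Across the tested probes, same-numbered samples of different groups did not deviate together (correlations of -0.22 to 0.133 in 9 pairs). With 3 samples a group, these correlations cannot decide whether the numbers pair the samples. With the replicate number as a block, the SE between the gels was 0.14 for Lyz1, against 0.18 without it. For Itgam it was 0.13 against 0.12. Over all probes, the calls between the gels were 337 higher and 104 lower, and 469 and 700 after quantile, 206 and 1274 after median and 421 and 565 after cyclic loess scaling. Those of soft ECM minus normal were 123 and 801, and 542 and 538, 333 and 331, and 606 and 617. Those of stiff ECM minus normal were 1197 and 1281, and 1981 and 2093 after quantile, 1725 and 3836 after median and 1956 and 1981 after cyclic loess scaling. With 3 samples a group, dim members such as C1qb are limited by background.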
